A study of Vitis vinifera with 6 samples.

Results

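The genes described here regulate, decorate and move anthocyanins, the red and blue flavonoid pigments of grapevine, and were followed in fully expanded leaves of control plants and of plants labelled as overexpressing CARPO, a NAC transcription factor. They are MYBA1, MYBA2, UFGT, AOMT, 3AT, GST4, AM1 and AM3. All 8 were found on the array by locus name, with 1 probe each, among 34369 probes other than controls. The files give locus names only, and the gene names used here are those commonly given to these loci in grapevine.

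Anthocyanins are built from phenylalanine by the flavonoid pathway, which ends in coloured but unstable anthocyanidins. A sugar added by UFGT makes them stable. Methyl and acyl groups are then added, and the pigment is carried into the vacuole with the help of a glutathione S-transferase and of MATE transporters of the vacuolar membrane. In grape berry skin, MYBA1 and MYBA2 are the R2R3-MYB factors that switch on UFGT at the onset of ripening. MYBA1 and MYBA2 belong to the locus that sets berry colour, which in red cultivars such as Syrah holds a working allele.

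The 3 control samples and the 3 samples labelled OX.CARPO were Vitis vinifera cv. Syrah, BVRC12 clone, grown in a greenhouse from calli derived from anthers. Total RNA of each was labelled with Cy3 and hybridised to 1 Agilent array. The series describes the transgenic plants as selected lines, and neither the promoter of the transgene nor the line behind each array is given in the sources used here. The leaf label was not checked against marker genes, because no marker list was given. Whether fewer cells of a kind or less RNA per cell lies behind a lower signal cannot be told apart in whole leaves.

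The share of probes well above background ran from 68.4% to 74.5%, and the 75th percentile of intensity ran from 668 to 1234. Labelled OX.CARPO replicate 3 stood apart. Its Pearson's r with the other arrays was 0.810 to 0.854 across 18929 probes, where all other pairs had 0.883 to 0.974. It was also alone in its scan and on its slide. Outlier marks fell on 6.12% of its spots, against 0.04% to 1.77% on the other arrays. The probe of the CARPO locus, VIT_08s0007g07670, had intensities of 12.4, 50.4 and 25.3 in controls 1, 2 and 3 and of 10.1, 15.1 and 271 in the arrays labelled OX.CARPO. It was thus raised on replicate 3 alone, and each direction below is that of the label. The difference of each of the 8 genes is therefore also given without replicate 3 and within scans. Scan 1 held replicate 1 of each group, and scan 2 held controls 2 and 3 with labelled OX.CARPO replicate 2.

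No gene of the 8 was called changed, and MYBA1 and MYBA2 were too dim to be tested. Of the 6 that were bright enough to be tested, 0 passed an adjusted p of 0.05 in limma, against 0.08% of the 23752 probes tested. At an unadjusted p under 0.05 there were 3 of 6 (3AT, AM1 and AM3), where 15.1% of all probes stood. The groups did not overlap at 2 of these 6, AM1 and AM3, where 24.2% of all probes with 6 usable spots had no overlap. Levels below are log2 values relative to the 75th percentile of the array, and differences are labelled OX.CARPO minus control. With 3 arrays against 3, an exact two-sided permutation test cannot go below 0.1.

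**Figure D1:**
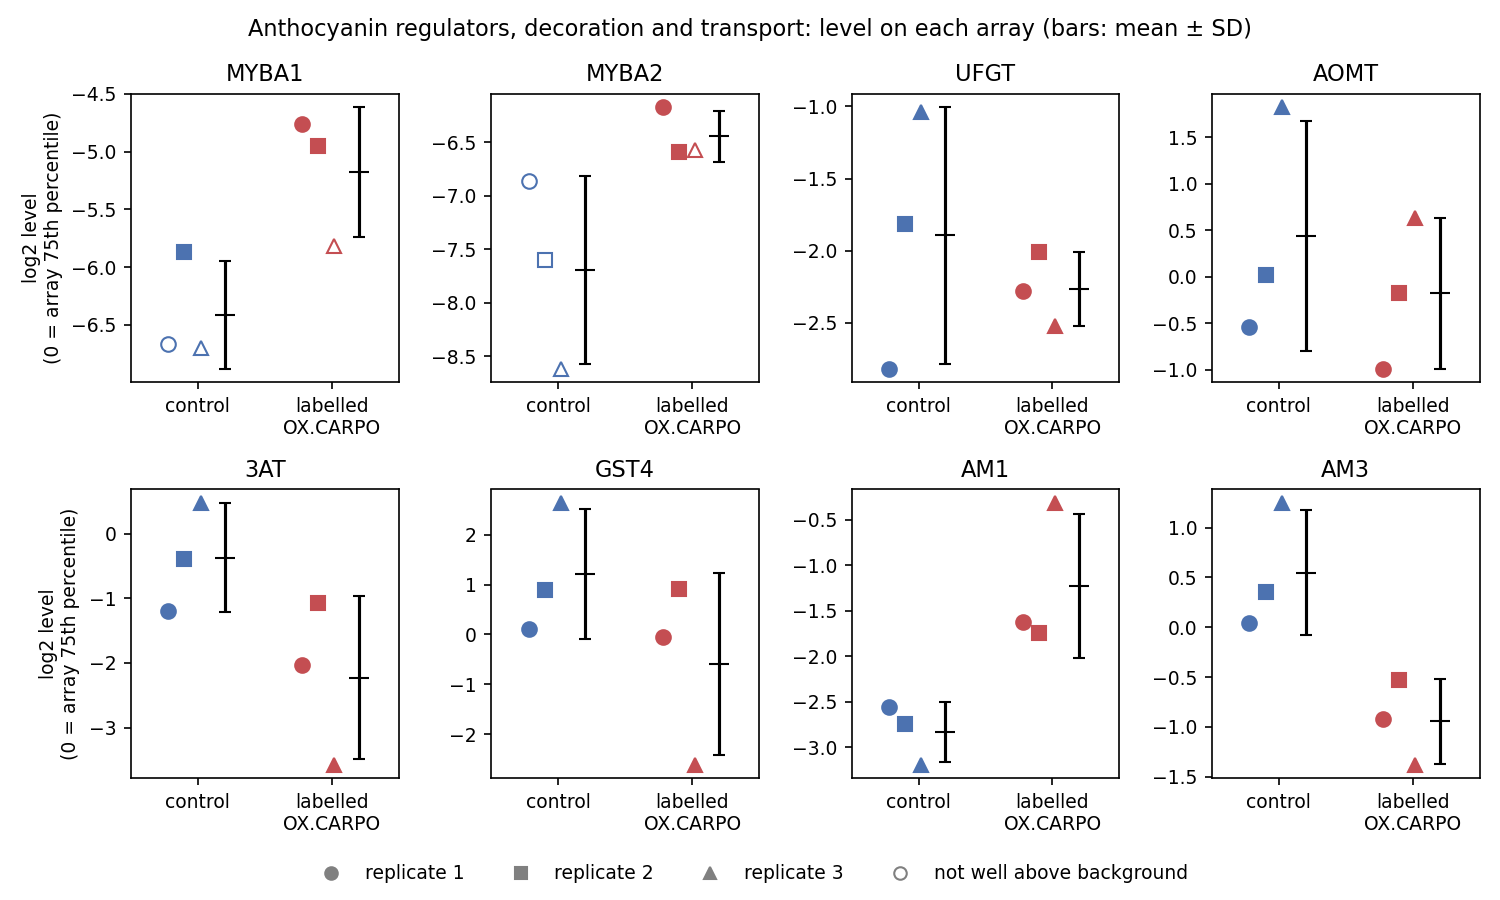
Level of each of the 8 probes on each array, in log2 units relative to the array's 75th percentile, with the mean ± SD of each group beside its points. Filled points were well above background and open points were not. The groups do not overlap for MYBA1, MYBA2, AM1 and AM3, and control replicate 3 is the highest point for UFGT, AOMT, 3AT, GST4 and AM3.

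The probes of both regulators were dim. MYBA1 (VIT_02s0033g00410) had intensities of 8.96, 14.0 and 9.94 in controls 1, 2 and 3 and of 24.7, 39.9 and 16.4 in labelled OX.CARPO replicates 1, 2 and 3. All 3 labelled OX.CARPO arrays lay above all 3 controls once scaled, as at 10.5% of the tested probes with 6 usable spots. The margin was small, at -5.82 on labelled OX.CARPO replicate 3 against -5.87 on control 2. The spot error on replicate 3 was 5.20 for a signal of 16.4. The probe was well above background on 1 control array and 2 labelled OX.CARPO arrays only. The mean level was -6.41 ± 0.47 in controls against -5.18 ± 0.57 under the OX.CARPO label (SD, n = 3 each), a difference of 1.24 that was outside the main test. When no filter on dim probes was set, its limma adjusted p was 0.396. The difference was 1.91 within scan 1 and 1.34 within scan 2. It was 1.56 without labelled OX.CARPO replicate 3. No test is given for that value, because the probe would then pass the filter only through the group in which it is brighter.

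MYBA2 (VIT_02s0033g00390), its near neighbour on chromosome 2, was dimmer still. Its intensities were 7.82, 4.22 and 2.63 in controls 1, 2 and 3 and 9.29, 12.8 and 9.70 in labelled OX.CARPO replicates 1, 2 and 3. It was well above background on labelled OX.CARPO replicates 1 and 2 and on none (0) of the controls. The groups did not overlap once scaled, at -6.59 on labelled OX.CARPO replicate 2 against -6.86 on control 1. The spot error on replicate 3 was 4.96 for a signal of 9.70. On that array MYBA2 was 1.12 above the control mean. So was VIT_17s0000g07200, a probe well above background on no array, which lay at -0.36 on replicates 1 and 2. The difference was 1.25, and it was 0.70 within scan 1 and 1.52 within scan 2. Without labelled OX.CARPO replicate 3 it was 1.31, again with no test. With no filter its limma adjusted p was 0.470. Since no control spot was well above background, the size of the difference is uncertain. The scanner software put the error of the spot signal at 11.0% to 19.3% of the signal for the 5 spots of MYBA1 and MYBA2 that were well above background, and at 23.7% to 80.6% for the other 7. Whether either probe also binds transcripts of related MYB genes was not tested.

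At the enzymes that decorate the pigment, no labelled OX.CARPO array lay above all controls once scaled. UFGT (VIT_16s0039g02230), the glucosyltransferase, had intensities of 129, 232 and 503 in controls 1, 2 and 3 and of 138, 307 and 161 in labelled OX.CARPO replicates 1, 2 and 3. Every labelled OX.CARPO array lay inside the control range once scaled. The mean level was -1.89 ± 0.89 in controls against -2.27 ± 0.26 under the OX.CARPO label (SD, n = 3 each). The difference of -0.38 had a limma 95% interval of -1.51 to 0.76 and an adjusted p of 0.736. It was 0.54 within scan 1 and -0.58 within scan 2, so its sign differed between scans, and it was 0.050 without control replicate 3 and -0.25 without labelled OX.CARPO replicate 3.

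AOMT (VIT_01s0010g03510), the anthocyanin O-methyltransferase, had intensities of 625, 829 and 3674 in controls 1, 2 and 3 and of 335, 1094 and 1428 in labelled OX.CARPO replicates 1, 2 and 3. Control replicate 3 was the highest array and labelled OX.CARPO replicate 3 came next. The difference was -0.61 (95% interval -2.35 to 1.12), with a limma adjusted p of 0.715. Without control replicate 3 it was 0.082, and without labelled OX.CARPO replicate 3 it was -1.02. Within scan 1 it was -0.45 and within scan 2 -1.10. The spread between replicates was thus larger than the difference between groups.

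3AT (VIT_03s0017g00870), the anthocyanin acyltransferase, had intensities of 396, 621 and 1445 in controls 1, 2 and 3 and of 163, 586 and 77.2 in labelled OX.CARPO replicates 1, 2 and 3. Replicates 1 and 3 lay below all controls, while replicate 2 lay between controls 1 and 2 once scaled. The level was -0.37 ± 0.84 in controls against -2.23 ± 1.26 under the OX.CARPO label (SD, n = 3 each). The difference of -1.86 had a 95% interval of -3.63 to -0.09 and a limma adjusted p of 0.312. It was -0.83 within scan 1, -1.12 within scan 2 and -1.18 without labelled OX.CARPO replicate 3.

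The carriers lay on both sides of the controls. GST4 (VIT_04s0079g00690), the glutathione S-transferase needed to bring anthocyanins into the vacuole, had intensities of 979, 1525 and 6478 in controls 1, 2 and 3. On labelled OX.CARPO replicates 1, 2 and 3 it had 643, 2313 and 150. Replicate 2 lay within the control range, replicate 1 just below it and replicate 3 far below. The level was 1.22 ± 1.30 in controls against -0.59 ± 1.82 under the OX.CARPO label (SD, n = 3 each). The difference of -1.81 (95% interval -4.37 to 0.76) had a limma adjusted p of 0.478. It came to -0.79 without labelled OX.CARPO replicate 3 and to -1.09 without control replicate 3, and was -0.16 within scan 1 and -0.87 within scan 2.

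On labelled OX.CARPO replicate 3, GST4 was 8.25-fold below the mean of labelled OX.CARPO replicates 1 and 2. A gap at least as wide between these arrays was seen at 4.69% of 21507 probes, and at 11.9% for the gap of 3AT, which was 4.07-fold. GST4 and 3AT had the widest gaps of the 8 members. At the other members that share ran from 22.7% for AM1 to 83.4% for MYBA2. The median gap over these probes was 0.67 on the log2 scale. That array stood apart as a whole, and the part of its leaf, scan, slide or array quality in these values cannot be told apart.

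AM1 and AM3 are MATE transporters that take acylated anthocyanins into the vacuole in grape berry cells. Their locus numbers on chromosome 16 are 930 and 910. AM1 (VIT_16s0050g00930) had intensities of 155, 122 and 113 in controls 1, 2 and 3 and of 216, 367 and 743 in labelled OX.CARPO replicates 1, 2 and 3. All 3 labelled OX.CARPO arrays lay above all controls. The level was -2.84 ± 0.33 in controls against -1.23 ± 0.80 under the OX.CARPO label (SD, n = 3 each). This 3.04-fold higher mean, a difference of 1.61 (SE 0.44, 95% interval 0.54 to 2.68), had a limma adjusted p of 0.189 and an exact permutation p of 0.1. The difference was 0.93 within scan 1, 1.22 within scan 2 and 1.15 without labelled OX.CARPO replicate 3.

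AM3 (VIT_16s0050g00910) lay the other way. Its intensities were 936, 1044 and 2466 in controls 1, 2 and 3 and 353, 856 and 354 in labelled OX.CARPO replicates 1, 2 and 3. All 3 labelled OX.CARPO arrays lay below all controls, at -0.94 ± 0.43 (SD, n = 3) against 0.55 ± 0.63 (SD, n = 3). The mean was 2.81-fold lower, a difference of -1.49 (SE 0.40, 95% interval -2.46 to -0.52), with a limma adjusted p of 0.182 and an exact permutation p of 0.1. The difference was -0.96 within scan 1, -1.33 within scan 2 and -1.27 without labelled OX.CARPO replicate 3.

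The log2 ratio of AM1 to AM3 within an array does not depend on how arrays are scaled, though its absolute size has no meaning between probes. This comparison was chosen after the values were seen. The ratio was -2.60, -3.10 and -4.45 in controls 1, 2 and 3 and -0.70, -1.22 and 1.07 in labelled OX.CARPO replicates 1, 2 and 3. The group means were 3.10 apart on the log2 scale, an 8.56-fold shift of the ratio. Labelled OX.CARPO replicate 3 had the highest ratio and widened that gap. Without that array the difference was 1.15 at AM1 and -1.27 at AM3, against 1.61 and -1.49 with it. With all arrays and normexp background correction, the differences were 1.03 and -1.24. The size of the shift thus depends on that array and on background correction. No test is given, since the lack of overlap at AM1 and at AM3 already fixes that of their ratio.

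**Figure D2:**
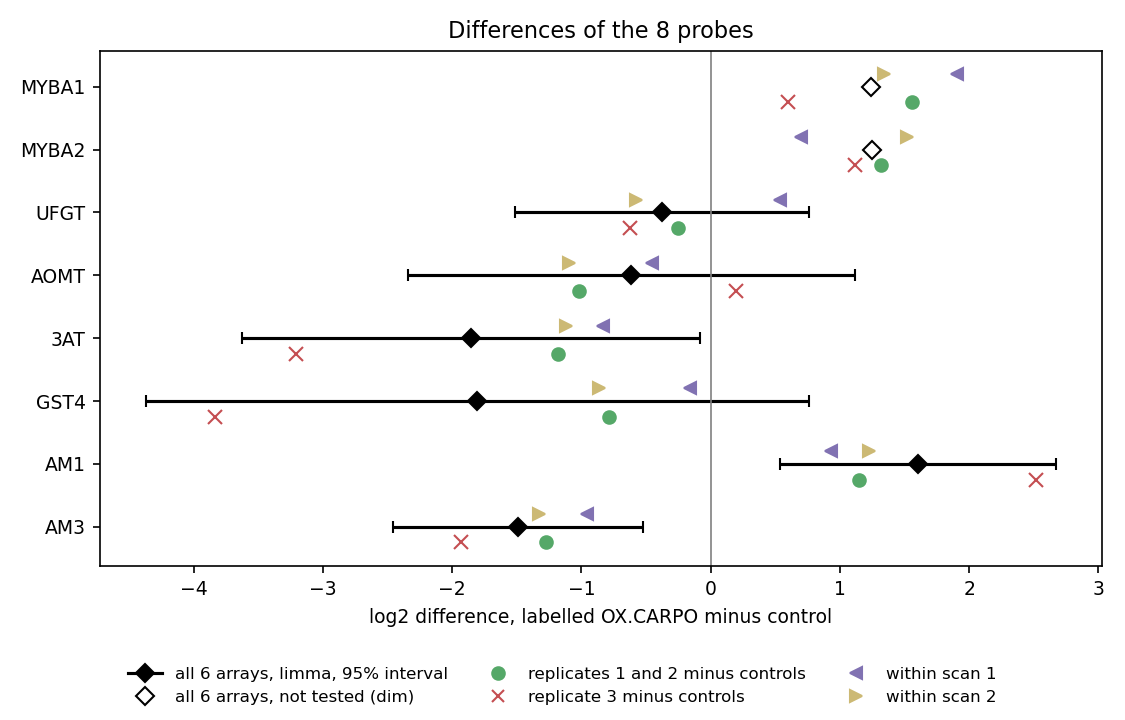
Log2 difference, labelled OX.CARPO minus control, for each of the 8 probes. Diamonds are the mean difference over 6 arrays, filled with the 95% limma interval where tested and open where the probe was too dim, and the other marks give the same difference without replicate 3, for replicate 3 alone and within scans 1 and 2. The marks of AM1 all lie above 0 and those of AM3 all below, while those of UFGT and AOMT lie on both sides.

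At the 6 probes well above background throughout, the same arrays were often the extremes. Control replicate 3 was the highest of all 6 arrays at 5 of them (UFGT, AOMT, 3AT, GST4 and AM3) and the lowest at AM1. Over 21507 probes, that array was the highest at 17.6% and the lowest at 18.1%. Labelled OX.CARPO replicate 3 was the lowest at 3AT, GST4 and AM3 and the highest at AM1, and over all probes it was the highest at 29.1% and the lowest at 32.7%. As the plot of levels by array shows, no other array was the highest at any of the 6.

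Likeness of pattern was measured as the root-mean-square difference between log2 levels over 6 arrays, each probe being centred on its own mean. Among the 15 pairs of these 6 genes, 3AT and GST4 were the most alike at 0.45, followed by 3AT and AM3 at 0.54 and by UFGT and AM3 at 0.61. GST4 and AM1 were the least alike at 2.46. The 5 pairs with AM1 ran from 1.35 to 2.46. For UFGT, the most like of 18923 other probes were VIT_13s0067g02690 at 0.18, VIT_17s0000g01430 at 0.21 and VIT_17s0000g08910, VIT_08s0040g03330 and VIT_13s0139g00310 at 0.24 each, where the median over these probes was 0.71. The 0.61 of UFGT and AM3 lay near that median, and the pairs without UFGT were not set against other probes. None (0) of the 5 probes most like UFGT passed in limma, with adjusted p from 0.667 to 0.894.

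The steps that lead up to UFGT were examined at 9 loci taken from general knowledge of the grapevine annotation. The list was chosen with earlier results of these data known, so its counts describe these loci and are not independent support. They are chalcone synthases, chalcone isomerase, flavanone and flavonoid hydroxylases, dihydroflavonol reductase and leucoanthocyanidin dioxygenase. Of the 9, 8 were bright enough to be tested and 0 passed in limma. At an unadjusted p under 0.05 there were 5 of 8, where 15.1% of all probes stood. The difference was below 0 at 8 of 8, from -2.95 to -0.92, and its median was -1.85, against 0.0038 over all probes tested. An outlier spot was left out on 1 array at 2 of the 8. The groups did not overlap at 5 of the 6 with 6 usable spots, with labelled OX.CARPO lower each time, where 13.7% of all probes stood in that direction. The median was -1.65 for labelled OX.CARPO replicates 1 and 2 (7 loci) and -2.53 for replicate 3 (6 loci). Replicates 1 and 2 differed from each other. Within scan 1 the median was -2.50 over 7 loci, all below 0, and within scan 2 it was -0.78 over 8 loci, from -1.40 to 0.017, with 7 below 0 and 1 above.

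The locus with the smallest unadjusted p in that list, VIT_02s0025g04720, listed as the leucoanthocyanidin dioxygenase that makes the substrate of UFGT, was picked after its values were seen. Its intensities were 4647, 4086 and 8180 in controls 1, 2 and 3 and 244, 2932 and 672 in labelled OX.CARPO replicates 1, 2 and 3. The difference was -2.77 (SE 0.68), with a limma adjusted p of 0.159. Labelled OX.CARPO replicate 2 was the nearest to the controls here, as it was at 3AT and AM3. Within scan 1 the difference was -3.80 and within scan 2 it was -1.40.

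The bHLH and WD40 partners of MYB factors were followed together with further MYB factors, MYB5a and MYB5b, at 5 loci listed in the same way. All are called partner regulators here for short. All 5 were tested and 0 passed in limma, with 1 of 5 at an unadjusted p under 0.05, beside 15.1% of all probes. Differences ran from -0.53 to 0.69 with a median of -0.04. Of the 4 with 6 usable spots, 1 had no overlap between groups, a share of 25% beside 24.2% of all probes. It was VIT_08s0007g07230, listed as MYB5a, at 0.09 ± 0.07 in controls and 0.78 ± 0.17 in the arrays labelled OX.CARPO (SD, n = 3 each), with an adjusted p of 0.209. That difference was 0.85 within scan 1 and 0.75 within scan 2.

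Loci numbered within 100 of a member on the same scaffold were taken as its neighbours by name. Of 105 such loci, 77 were tested and 0 passed in limma, with 13 at an unadjusted p under 0.05, which is 16.9% beside 15.1% of all probes. Their median difference was -0.05, from -3.73 to 1.48. In the run of locus numbers around AM1, 17 neighbours were tested, 5 with a difference above 0 and 12 below. Of the 15 with 6 usable spots, 1 had labelled OX.CARPO higher without overlap and 3 lower, where 10.5% and 13.7% of all probes stood. Around MYBA1, 6 of 15 neighbours were bright enough to be tested, with differences of -1.66 to 0.17. The neighbour at -3.73 belonged to MYBA2. Around AOMT, 10 of 11 tested neighbours had a difference below 0. Labelled OX.CARPO was lower without overlap at 4 of 10 with 6 usable spots there. The same count was 4 of 10 around GST4, 1 of 9 around 3AT and 0 of 14 around UFGT.

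**Figure D3:**
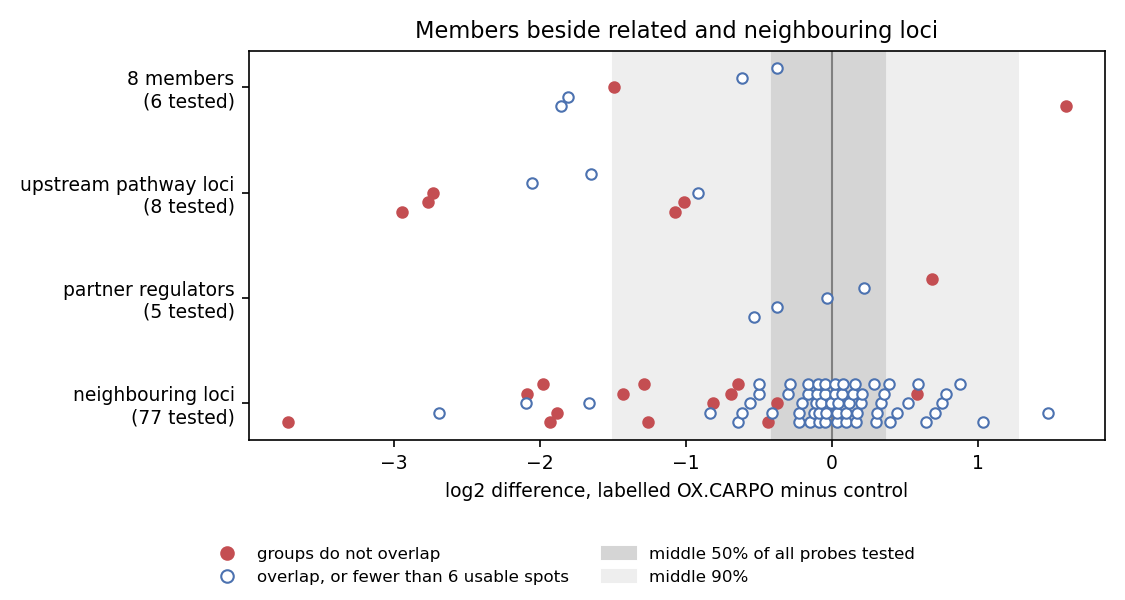
Log2 difference, labelled OX.CARPO minus control, of the tested probes among the members, the upstream pathway loci, the partner regulators and the neighbouring loci. Filled points had no overlap between groups, and the shaded bands hold the middle 50% and 90% of all probes tested. All 8 upstream loci lie below 0, and the members lie on both sides of it.

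A processed table was deposited beside the scanner files, and it held 7 of the 8 probes, without MYBA2. Its column of labelled OX.CARPO replicate 3 lay between those of replicates 1 and 2 at 7 of 7 members, and over the table it followed the mean of their scanner signals within 0.1% at 99.9697% of probes. At GST4 this column gave 1455 where the scanner file of replicate 3, scaled alike, gave 152, a 9.55-fold gap. At 3AT it gave 368 against 78.3. At AM1 it gave 287 where the scanner file gave 753, and at AOMT 703 against 1447.

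Among the 6 members tested above, limma called AM1 with that table, where 13.5% of its probes passed. AM1 had a difference of 1.14 (limma adjusted p 0.0192) and the dim MYBA1 of 1.55, both higher in the arrays labelled OX.CARPO. No call or p-value is given for MYBA1, since its probe was well above background on 1 control array only. How probes were chosen for that table is not known here. With the column of labelled OX.CARPO replicate 3 left out, 0 of 7 passed, against 0.408% of its probes. Of the 6, AM1 and AM3 were at an unadjusted p under 0.05, where 4587 of 23065 probes stood. The limma adjusted p of AM1 was then 0.106. The call of AM1 was therefore absent without the column made from the other arrays, in a fit with 1 array fewer.

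**Figure D4:**
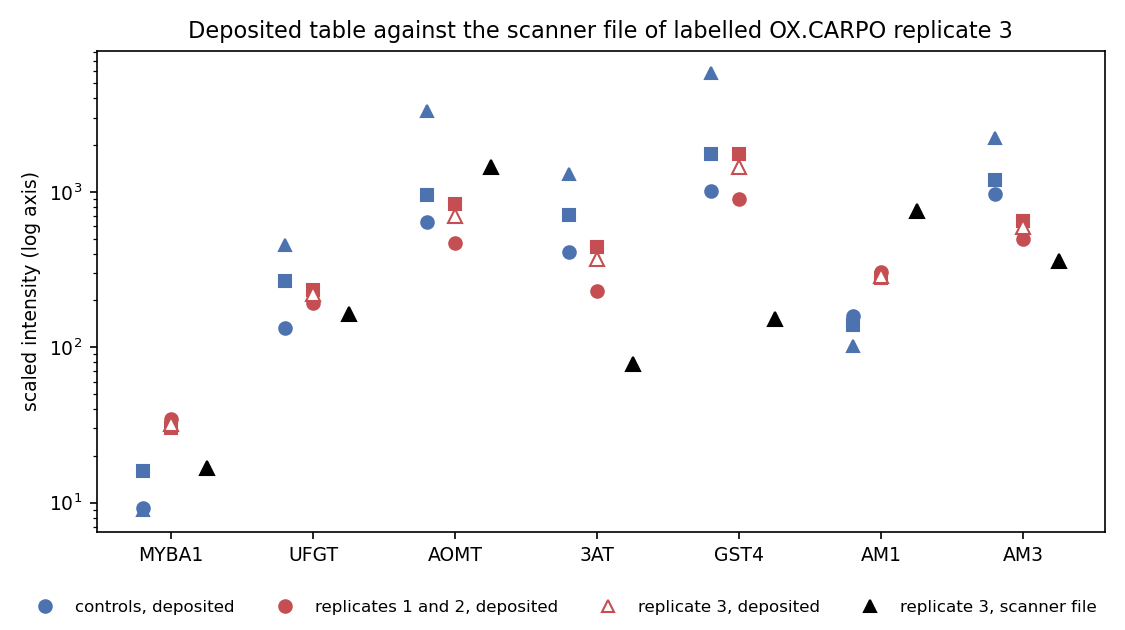
Scaled intensity, on a log axis, of the 7 members in the deposited table, by array, beside the scanner file of labelled OX.CARPO replicate 3 brought to the same 75th percentile. The deposited column of replicate 3 lies between replicates 1 and 2 at all 7, and the scanner value lies outside that span, 152 against 1455 at GST4.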

How the data were processed

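Per the file headers, Agilent Feature Extraction 10.5.1.1 gave the spot intensity, corrected array by array for background and spatial trend. How the deposited table of intensity values was made is not given in the sources used here. The 0 or 1 marks for spots well above background or outlying, another kind of value in the deposited files, were used as they stand. No spot was saturated (0 on each array).

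Groups and replicate numbers came from the sample titles. Processed signals were divided by the 75th percentile of their array and put on the log2 scale. Control spots were left out and outlier spots treated as missing, with at least 2 usable spots per group. To be tested, a probe had to stand well above background throughout at least 1 group. Testing was by limma 3.58.1 in R 4.3.3, with no covariate, and p-values were adjusted by Benjamini-Hochberg over all probes tested. The code was tested on simulated data. Scans were told apart by the scan records in the headers.

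The members and lists were chosen with earlier results of these data known. Named were all members, the CARPO probe, list members past the threshold (0) and the 5 probes most like UFGT. Locus names gave 0 matches in the RefSeq gene table used, so no coordinates are given. The p-values measure the spread between these samples, and the number of arrays limits precision. Alternatives covered background correction, normalization, filters, variance, array weights, outlier spots, the deposited table, blocks and leaving out arrays.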

Additional observations from a re-analysis of the deposited data

How the results depend on the processing

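All 6 tested members stayed short of the threshold in every setting of the scanner files. 3AT, GST4, AM1 and AM3 kept their sign in all 20 alternatives, which for AM1 and AM3 no array left out could turn. These 20 are not separate checks. The filters, the variance setting, keeping outlier spots and the replicate block left these differences as they were. Slide as a block gave the same differences as leaving out labelled OX.CARPO replicate 3. Sizes moved: 3AT ran from -2.43 to -0.89 (normexp), GST4 from -2.55 to -0.56 (scan as a block; -1.13 under normexp, -0.95 with array weights), AM1 from 1.03 (normexp) to 1.87 and AM3 from -1.75 to -1.14. Without control replicate 3, UFGT and AOMT reversed, and leaving out each array in turn gave -0.84 to 0.050 for UFGT and -1.10 to 0.082 for AOMT. The deposited table moved AM1 past the threshold (1.14). Beside AM1, that table called 1 of 8 upstream loci, 1 of 5 partner regulators and 11 of 72 neighbouring loci, where 13.5% of its probes passed. That share was 3114 changed probes, against 94 without its column of labelled OX.CARPO replicate 3, an alternative chosen after seeing the data. Over the array, 19 probes passed, and 0 under normexp, without a filter and with the replicate block (1536, 3404 and 3096 at an unadjusted p under 0.05), 7 with the filter on all 6 arrays, 228 with array weights, 45 with scan and 69 with slide as a block. The causes were not tested. Normexp used median spot signals, since mean signals are not in these files. Leaving out 1 array gave 0 to 116 probes, 0 to 1 upstream and 0 to 1 neighbouring loci. The replicate block called 0 members (2 at an unadjusted p under 0.05). Deviations from the group means correlated at 0.25, 0.05 and -0.01 between arrays of number 1, 2 and 3, so that the numbers were not taken to pair samples. The CARPO probe reversed with array weights (-1.14), scan (-0.88) and slide (-1.0) as a block, and lay between -1.0 and 1.29 in fits lacking 1 array (-0.03 for control replicate 1). MYBA1 and MYBA2 were not well above background on 7 spots and were on 5, which limits what their values can show.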
